A study of Mus musculus with 36 samples.

Results

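The LDL receptor family and its extracellular ligand reelin were described here through 9 genes, taken by gene name from a count table of 16614 genes. They were Reln, the reelin receptors Lrp8 and Vldlr, the large endocytic receptors Lrp1, Lrp1b and Lrp2, and the receptors Lrp4, Lrp5 and Lrp6. All 9 were present in the table. The counts came from whole brains of C57BL/6 (WT) and FMR1-KO (FMR1 KO) mice at postnatal day 5, with 10 brains used for a preparation. Ribosome-protected fragments (RPFs, the stretches of mRNA that ribosomes shield from nuclease) were sequenced from the pellet of a sucrose gradient, where RNA granules with stalled ribosomes sediment, and from fraction 5/6, which holds lighter ribosome clusters, and RNA was sequenced from the homogenate. A standard preparation (the M-protocol, with 10 mM MgCl2 and strong nuclease treatment) and a low nuclease preparation (2.5 mM MgCl2) were made, which gave 12 groups of 3 libraries and 36 libraries in all. The study speaks of its replicates as biological preparations, and the labels do not say for each library which mice it came from. The 3 replicates of an RPF group were given separate linkers and then pooled for library construction, and p-values measure the spread between these preparations.

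Reelin is a large secreted glycoprotein that guides neuronal migration and layering in the developing cortex. It binds apolipoprotein E receptor 2, the product of Lrp8, and the very low density lipoprotein receptor, the product of Vldlr, and the clustered receptors pass the signal to the adaptor Dab1 inside the cell. Lrp1 takes up many ligands and chaperone complexes, Lrp2 (megalin) does so in absorptive epithelia, and Lrp1b is a close relative of Lrp1 that is internalised slowly. Lrp5 and Lrp6 are Wnt co-receptors, and Lrp4 is the agrin receptor of the neuromuscular junction. The question put to these genes was how their RPFs divided between the pellet and fraction 5/6, how the pellet stood against RNA, and whether loss of FMRP, the product of Fmr1, moved either value.

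The genes differ in size. On the GRCm38 genome, the coding sequence is 13635 nt for Lrp1 (chr10:127538161-127621148, minus strand, 89 exons), 13797 nt for Lrp1b (chr2:40595246-42653624, minus, 91 exons), 13980 nt for Lrp2 (chr2:69424340-69586065, minus, 79 exons) and 10377 nt for Reln (chr5:21884454-22344702, minus, 64 exons). It is 5715 nt for Lrp4 (chr2:91457511-91513779, plus, 38 exons), 4842 nt for Lrp5 (chr19:3584828-3686564, minus, 23 exons) and 4839 nt for Lrp6 (chr6:134446476-134566965, minus, 23 exons). Lrp8 (chr4:107802261-107876840, plus, 19 exons) and Vldlr (chr19:27216484-27254231, plus, 19 exons) have the shortest, with 2865 and 2619 nt, and the median over protein-coding genes is 1353 nt. Of the literature lists that the study used, the list of mRNAs resistant to ribosome run-off holds Lrp1 and Reln, the Darnell list of FMRP targets holds Lrp1, Reln and Lrp8, and the Maurin list holds Lrp1 alone.

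Depth without Cdk8, a gene that took 36.7 to 63.4% of the counts of a standard RPF library, was 4284209 to 21274803 counts in standard RPF libraries and 112240104 to 147207607 in standard RNA. In the low nuclease preparation it was 22378936 to 60377525 in RPF libraries and 38505915 to 141497783 in RNA. Levels are given in CPM, counts scaled to these totals. All 5 neuronal markers were detected in every group. Fmr1 checked the labels. It was at 64.6 to 67.8 CPM in the WT pellet and 4.79 to 4.93 CPM in the FMR1 KO pellet, and at 60.6 to 71.9 CPM in WT RNA and 16.4 to 18.1 CPM in FMR1 KO RNA. In WT fraction 5/6 it was at 100.1, 68.6 and 3.17 CPM, so the library labelled replicate 3 had a value below the 5.98 to 10.7 CPM of FMR1 KO fraction 5/6, which goes against its WT label. Whether it holds the sample that its label names was not tested. It is called WT fraction 5/6 replicate 3 after its label alone, and results that rest on it are given with and without it. The low nuclease RNA libraries also differed: in WT replicate 2 and in replicates 2 and 3 of FMR1 KO the 10 most abundant genes took 81.5 to 85.0% of counts, against 3.66 to 4.10% in the other 3.

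Reln, the ligand, had 45.3, 47.6 and 97.1 CPM in the WT pellet and 89.9, 37.1 and 63.8 CPM in the FMR1 KO pellet. In fraction 5/6 it had 12.4, 9.65 and 58.4 CPM in WT and 10.9, 11.8 and 14.0 CPM in FMR1 KO. The FMR1 KO pellet libraries were all above the FMR1 KO fraction 5/6 libraries, whereas in WT the ranges overlapped through fraction 5/6 replicate 3. RNA was at 48.2, 42.8 and 58.4 CPM in WT and 36.6, 43.2 and 48.2 CPM in FMR1 KO, and overlapped the pellet in both genotypes. Reln is made by Cajal-Retzius cells of the early cortex, among other sources that were not examined. All 3 markers of these cells were detected in every group, with a summed level of 544 to 1331 CPM in the WT pellet against 138 to 156 CPM in WT RNA, but only Trp73 was higher there, at 444 to 1206 CPM in the WT pellet and 5.92 to 9.61 CPM in WT RNA. Calb2 was at 96.1 to 136 CPM and 115 to 144 CPM, and Lhx5 at 4.36 to 6.62 CPM and 6.38 to 13.1 CPM. Trp73 was high in standard fraction 5/6 as well, at 861 to 2535 CPM in WT, and ran from 7.70 to 1137 CPM in FMR1 KO. In the low nuclease WT pellet Trp73 was at 5.09 to 6.67 CPM. The part of these cells in the Reln values was not tested, and fewer cells of a type and less RNA per cell cannot be told apart in whole brain.

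The 2 reelin receptors were unlike their ligand. Lrp8 had 5.45, 5.32 and 7.21 CPM in the WT pellet, 7.46, 5.50 and 6.97 CPM in the FMR1 KO pellet, and 4.31 to 5.69 CPM over all 6 libraries of fraction 5/6. In RNA it had 66.1, 62.6 and 62.7 CPM in WT and 59.0, 47.5 and 64.2 CPM in FMR1 KO, so its RNA was far above its RPFs in every standard library. Vldlr had 5.97, 6.95 and 15.6 CPM in the WT pellet and 9.86, 6.54 and 8.65 CPM in the FMR1 KO pellet. Its fraction 5/6 values were 5.24, 3.52 and 12.2 CPM in WT and 8.05, 8.72 and 6.30 CPM in FMR1 KO, and overlapped the pellet in both genotypes. Its RNA was at 16.5 to 24.3 CPM over the 6 standard libraries.

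Lrp1 gave the most RPF counts of the 9 in the pellet. It had 81.3, 74.3 and 133 CPM in the WT pellet, from 1730, 908 and 1581 counts, and 113, 56.3 and 109 CPM in the FMR1 KO pellet, from 1742, 706 and 1366 counts. In fraction 5/6 it had 9.33, 8.85 and 105 CPM in WT and 11.04, 11.5 and 16.8 CPM in FMR1 KO. The WT library with 105 CPM was again replicate 3, which stood 11.6-fold above the mean of the other two, and the remaining 5 libraries of fraction 5/6 were all below every pellet library. Lrp1 RNA was at 116, 115 and 104 CPM in WT and 113, 70.3 and 107 CPM in FMR1 KO. Its relative Lrp1b had 12.9, 8.91 and 20.3 CPM in the WT pellet and 15.7, 21.6 and 18.5 CPM in the FMR1 KO pellet, against 9.63, 9.20 and 19.4 CPM and 9.18, 8.94 and 18.2 CPM in fraction 5/6. The Lrp1b groups overlapped in both genotypes. Lrp1b RNA was uneven, with 79.5, 33.2 and 25.0 CPM in WT and 24.9, 40.0 and 25.7 CPM in FMR1 KO. Lrp2 was near the limit of detection, with 0 to 0.818 CPM in standard RPF libraries and 0.621 to 1.32 CPM in RNA. The WT pellet library with 0 counts, replicate 3, allows up to 0.252 CPM (3 counts, counting error only). All 5 choroid plexus markers, which mark an epithelium known for Lrp2, were detected in every group, with sums of 37.5 to 51.7 CPM in the WT pellet and 91.0 to 132 CPM in WT RNA.

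Of the remaining receptors, Lrp4 had 4.89, 4.58 and 8.81 CPM in the WT pellet and 5.71, 3.91 and 5.61 CPM in the FMR1 KO pellet. In fraction 5/6 it had 1.26, 1.25 and 6.34 CPM in WT and 0.413, 1.44 and 2.101 CPM in FMR1 KO. It thus had the pattern of Reln and Lrp1, with no overlap between pellet and fraction 5/6 in FMR1 KO and with WT replicate 3 high, but from 49 to 105 counts in a pellet library and 4 to 78 in a fraction 5/6 library. Lrp5 had 0.893, 0.409 and 0.587 CPM in the WT pellet and 1.23, 1.52 and 1.28 CPM in the FMR1 KO pellet, from 5 to 19 counts a library, and 5.31 to 7.93 CPM in RNA. Lrp6 had 3.53, 3.03 and 3.27 CPM in the WT pellet, 6.74, 2.87 and 4.89 CPM in the FMR1 KO pellet and 29.7 to 46.5 CPM in RNA. In fraction 5/6 Lrp6 was at 2.83, 2.72 and 4.39 CPM in WT and 4.95, 4.17 and 32.2 CPM in FMR1 KO. The value of 32.2 CPM came from the shallowest library, FMR1 KO replicate 3, with 138 Lrp6 counts.

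**Figure D1:**
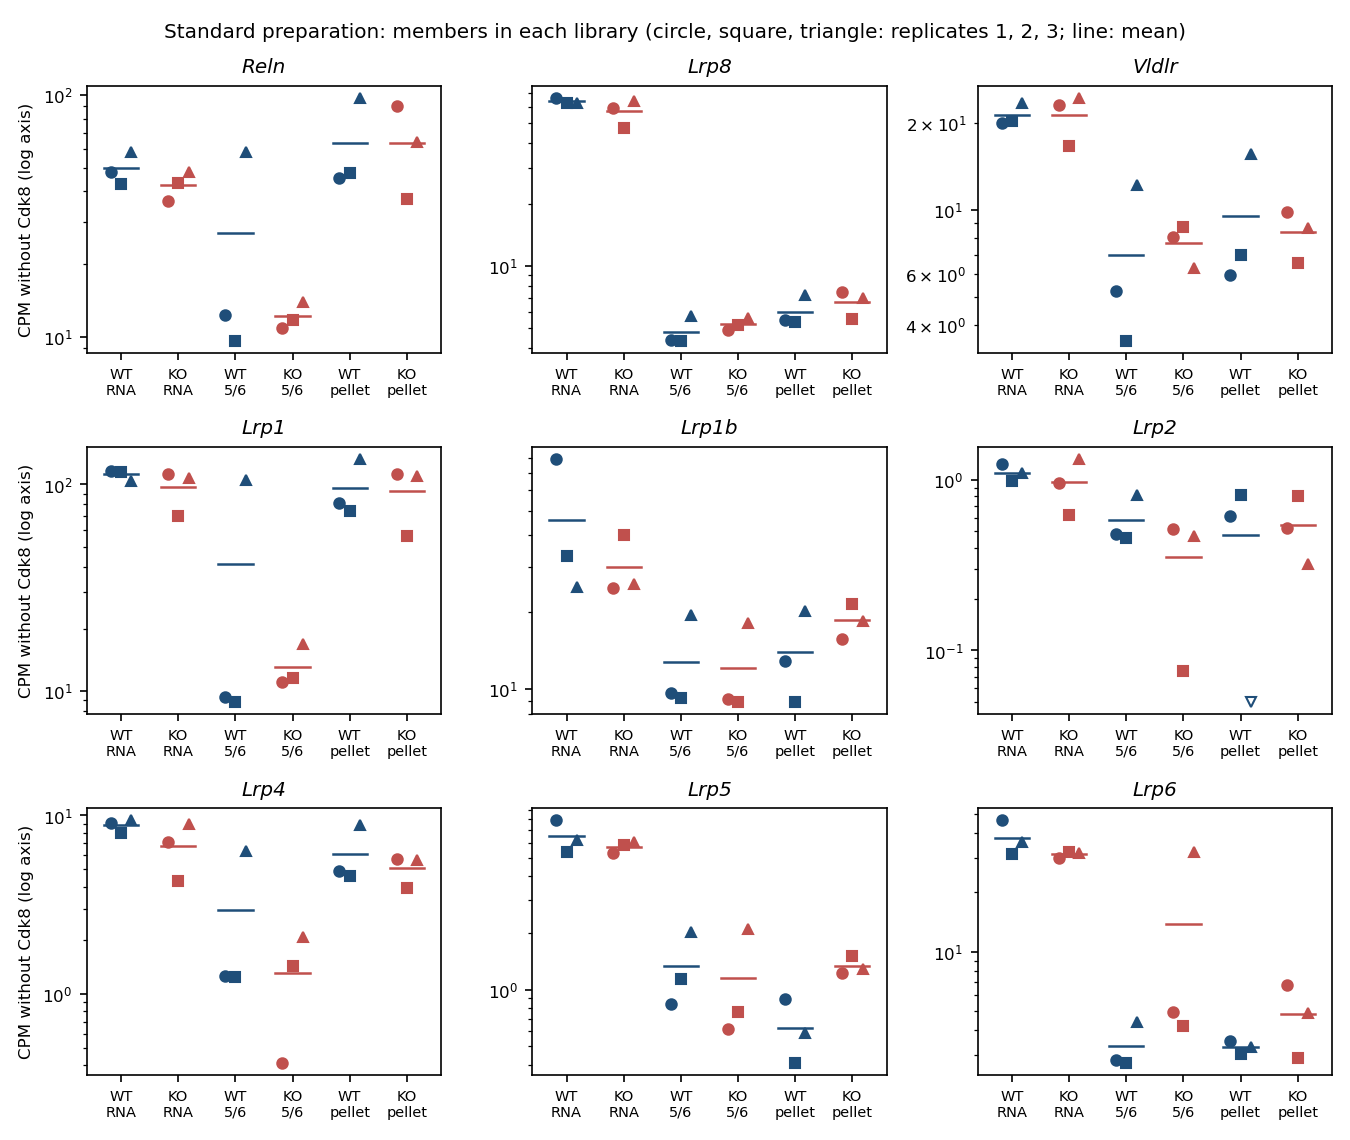
Levels of the 9 genes in the 18 standard libraries. Each symbol is a library (circle, square and triangle for replicates 1, 2 and 3) on a log axis of CPM without Cdk8, grouped as RNA, fraction 5/6 and pellet in WT (blue) and FMR1 KO (red), horizontal lines are group means, and the inverted open triangle for Lrp2 marks a library with 0 counts. For Reln, Lrp1 and Lrp4 the pellet lies above fraction 5/6 except for 1 WT library of fraction 5/6, and for Lrp8, Lrp5, Lrp6, Vldlr and Lrp1b RNA lies above the pellet.

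Per kilobase of coding sequence (RPKM), the order of the genes changed between RNA and the pellet. Coding length was used for RNA too, although RNA reads also cover untranslated regions. The transcript has 7971 nt for Vldlr (coding 2619 nt), 9368 nt for Lrp6 (4839 nt) and 14888 nt for Lrp1 (13635 nt). The order in RNA thus holds for coding length alone, and the part of the length used in the change of order was not tested. In standard RNA Lrp8 was first, at a mean of 22.3 RPKM in WT and 19.9 in FMR1 KO, and its libraries did not overlap those of the next gene. Lrp1, Vldlr and Lrp6 followed at 8.20, 8.09 and 7.84 RPKM in WT, with overlapping ranges, then Reln at 4.80, Lrp1b at 3.33, Lrp4 at 1.55, Lrp5 at 1.34 and Lrp2 at 0.0788 RPKM. In the pellet Lrp1 was first at 7.05 RPKM in WT and 6.81 in FMR1 KO, and Reln second at 6.10 and 6.13 RPKM, overlapping Lrp1. Vldlr, at 3.63 RPKM in WT, and Lrp8, at 2.09 RPKM, came next, and each overlapped its neighbour. Lrp8 was separated from the gene after it in both genotypes, Lrp5 was eighth at 0.130 RPKM in the WT pellet, and Lrp2 was last in each standard group.

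Lrp1 was also the member with footprint peaks. The authors' lists of peaks, positions where RPFs pile up on a transcript, exist for the 12 standard RPF libraries and hold 57 peaks on Lrp1 and none on the other 8 genes. A library listed 11389 to 36435 peaks in all. The Lrp1 peaks numbered 18, 2 and 9 in the WT pellet and 18, 0 and 8 in the FMR1 KO pellet. The 2 peaks in fraction 5/6 were both from WT replicate 3, and the other 5 libraries of fraction 5/6 had none. Peak heights were 1 to 17 reads, so each position rests on few fragments. All 57 middles lay in the coding region, between 19.6% and 95.5% of its length. Pairs of pellet libraries rarely put a peak at the same place: with middles matched within 6 nt there were 3 pairs, made of 5 peaks, and 2 of these pairs joined a WT with an FMR1 KO library at the place described next, while the third joined WT replicates 1 and 3 elsewhere. The densest place held middles from 5 of the 6 pellet libraries within 30 nt, whereas no other window of 100 nt held more than 3. It lies in exon 60 of 89, at chr10:127553513-127553569 of GRCm38 on the minus strand, and the peak middles fall on codons 3163 to 3173 of 4546. The peak lists give positions on a transcript identifier without a version, and these were read on the GENCODE M21 model of that identifier, whereas the authors name a later Ensembl release. The exon, codons, coordinates and sequence hold only if that model is the same in both. The sequence of the stretch is shown, 5′ to 3′ on the transcript strand, because it held peaks from more pellet libraries than any other window, and the capitals mark the span of the 5 middles.

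Lrp1 exon 60 stretch: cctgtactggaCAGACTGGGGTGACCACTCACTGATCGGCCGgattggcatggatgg

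In this stretch of 57 nt the peak heights were 14, 3 and 17 reads in WT pellet replicates 1, 2 and 3 and 13 and 15 reads in FMR1 KO pellet replicates 1 and 3. WT pellet replicate 3 held a further peak, of 1 read, in the same stretch, and FMR1 KO pellet replicate 2 listed no Lrp1 peak at all. The letters of motifs that the literature ties to FMRP binding were searched on the transcript strand alone, without regard to overlap. ACTG or ACTT occurred 3 times and TGGA or AGGA occurred 2 times in the stretch. Windows of the same length centred on the pellet peaks of all transcripts held the former in 36.6% and the latter in 61.5% of 156096 cases, so both are common letters.

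**Figure D2:**
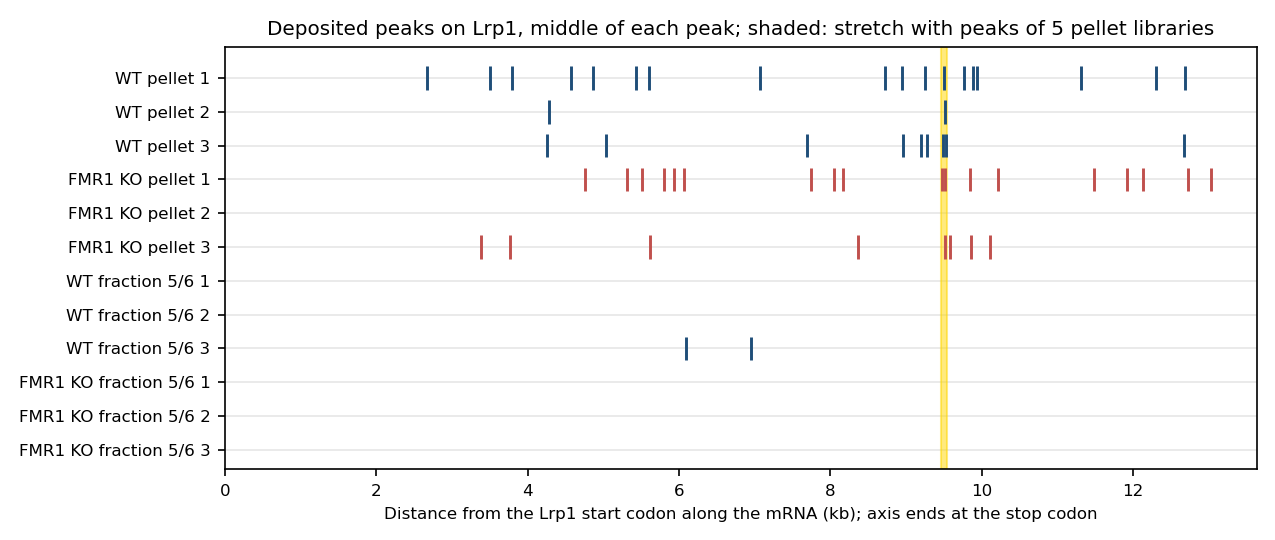
Footprint peaks on the Lrp1 mRNA by library. The horizontal axis is the distance from the start codon in kb and ends at the stop codon, each row is a standard RPF library (WT blue, FMR1 KO red), each tick is the middle of a peak, and the yellow band marks the exon 60 stretch. The 55 pellet peaks are scattered over the coding sequence and 5 of the 6 pellet libraries have a peak in the band.

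Occupancy, the level in the pellet against RNA, was then compared within each genotype. Reln and Lrp1 were higher in the pellet than in RNA in both genotypes, relative to the average gene, and Lrp8, Lrp5 and Lrp6 were lower. In WT, Reln was 2.80-fold higher (log2 fold change 1.48, SE 0.32, adjusted p = 0.0016) and Lrp1 1.88-fold higher (0.91, SE 0.26, adjusted p = 0.00879, edgeR quasi-likelihood test, Benjamini-Hochberg adjusted, n = 3 a group). In FMR1 KO, Reln was 3.10-fold higher (1.63, SE 0.32, adjusted p = 0.000855) and Lrp1 2.00-fold higher (1.00, SE 0.26, adjusted p = 0.00507). These directions depend on the scaling. With library size alone Lrp1 turned to -0.22 in WT and -0.06 in FMR1 KO and Reln stayed positive but uncalled at 0.35 and 0.58, while the median over all genes moved from -0.15 to -1.25 in WT and from -0.07 to -1.15 in FMR1 KO. Read against that median, Reln and Lrp1 remained above the average gene.

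Lrp8 was 4.93-fold lower in WT (-2.30, SE 0.16, adjusted p = 2.7e-07) and 3.99-fold lower in FMR1 KO (-1.997, SE 0.16, adjusted p = 7.26e-07). Lrp6 was 5.33-fold lower in WT (-2.42, SE 0.21, adjusted p = 1.38e-06) and 3.07-fold lower in FMR1 KO (-1.62, SE 0.20, adjusted p = 2.56e-05). Lrp5 was 4.55-fold lower in WT (-2.19, SE 0.32, adjusted p = 8.7e-05) and 1.97-fold lower in FMR1 KO (-0.98, SE 0.29, adjusted p = 0.0114). In CPM every pellet library of these 3 genes lay below every RNA library in both genotypes, as it did for Vldlr and Lrp1b and, in WT, for Lrp2. This made 6 members in WT and 5 in FMR1 KO, beside 69.1% of 16580 genes in WT and 66.2% of 16581 in FMR1 KO, so it does not set these genes apart. Lrp4 (0.58 in WT, adjusted p = 0.102, and 0.68 in FMR1 KO, adjusted p = 0.065), Vldlr (-0.03 and -0.25), Lrp1b (-0.58 and 0.44) and Lrp2 (-0.07 and 0.32) were not called, and with library size alone Lrp4 turned to -0.54 and -0.42, and in FMR1 KO Lrp1b turned to -0.70 and Lrp2 to -0.82. That scaling called Vldlr lower in both genotypes (-1.17, adjusted p = 0.00408, and -1.35, adjusted p = 0.00164) and Lrp1b lower in WT (-1.71, adjusted p = 0.00193). The call of Lrp4 depends on the test. DESeq2 called it higher in both genotypes, at 0.66 in WT (adjusted p = 0.036) and 0.74 in FMR1 KO (adjusted p = 0.0199), and the edgeR fit of FMR1 KO by itself called it at 0.69 (adjusted p = 0.0496). Without WT pellet replicate 3, Vldlr in WT was called at -0.62 (adjusted p = 0.00706), and Lrp4 was called at 0.79 in WT without WT pellet replicate 2 (adjusted p = 0.0361) and at 0.68 in FMR1 KO without WT pellet replicate 3 (adjusted p = 0.0209).

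Counted over the 9 genes, 2 were higher and 3 lower in each genotype, or 3 and 3 by DESeq2, with Lrp4 as the third higher. Over all 16437 genes tested, 30.6% were higher and 35.9% lower in WT, and 31.7% were higher and 34.8% lower in FMR1 KO, so the share of members called was near the background. By DESeq2 32.8% were higher and 34.8% lower in WT, and 33.4% were higher and 34.0% lower in FMR1 KO. Their median log2 fold change was -0.07 in WT and 0.32 in FMR1 KO, beside -0.15 and -0.07 over all genes. Occupancy sets RPF libraries against RNA libraries, which were made in different ways.

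The low nuclease preparation gave other occupancies. There Lrp1 was at -2.01 in WT and -2.29 in FMR1 KO, Reln at -0.91 and -1.34 and Lrp4 at -1.48 and -1.64, all opposite in sign to the standard preparation, and Lrp6 was at 0.24 and -0.09. Of the 9 members 0 were higher in either genotype and 5 were lower in WT and 7 in FMR1 KO, where 18.9% of 16042 genes were lower and 23.1% higher in WT, and 19.4% were lower and 22.3% higher in FMR1 KO. They were not the members called lower in the standard preparation throughout, since Lrp6 was called in neither genotype and Lrp5 in WT alone (-1.65, adjusted p = 0.02, and -0.88, adjusted p = 0.172, in FMR1 KO). With the 3 RNA libraries dominated by 10 genes left out, an alternative chosen after seeing the data that leaves 1 FMR1 KO RNA library, which is assumed to vary like the other groups, the signs of Lrp1 (-1.88 and -2.95), Reln (-0.61 and -1.89) and Lrp4 (-1.36 and -1.76) stayed negative. The RNA level of Lrp1 differed between the preparations. It was 976, 255 and 1787 CPM in WT and 1484, 130 and 35.3 CPM in FMR1 KO in low nuclease RNA, so that the WT mean was 9.002-fold that of standard RNA, without overlap, and the FMR1 KO mean 5.68-fold, with overlap. Reln RNA was 222, 87.3 and 498 CPM in WT, a mean 5.40-fold that of standard RNA without overlap. In FMR1 KO it was 444, 41.4 and 17.1 CPM, so that the mean, 3.93-fold that of standard RNA, rested on replicate 1 and the preparations overlapped. The summed neuronal markers were lower in low nuclease RNA, at 841 to 4811 CPM in WT and 603 to 5543 CPM in FMR1 KO. In standard RNA they were at 6244 to 7049 and 6687 to 7388 CPM. The summed astrocyte and oligodendrocyte lineage markers overlapped between the preparations in both genotypes. The paper describes nuclease digestion for the ribosome fractions and not for the homogenate RNA. The cause of the RNA differences was not tested. Between the RPF libraries of the preparations, magnesium and nuclease treatment changed together and cannot be told apart. Lrp6 differed in its RPFs instead: its mean in the low nuclease pellet was 20.8-fold that of the standard pellet in WT and 9.20-fold in FMR1 KO, and in fraction 5/6 it was 20.4-fold in WT and 3.10-fold in FMR1 KO, with no overlap in any of these pairs. For the 3.10-fold value the standard mean was raised by 1 library, at 32.2 CPM beside 4.17 and 4.95 CPM.

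**Figure D3:**
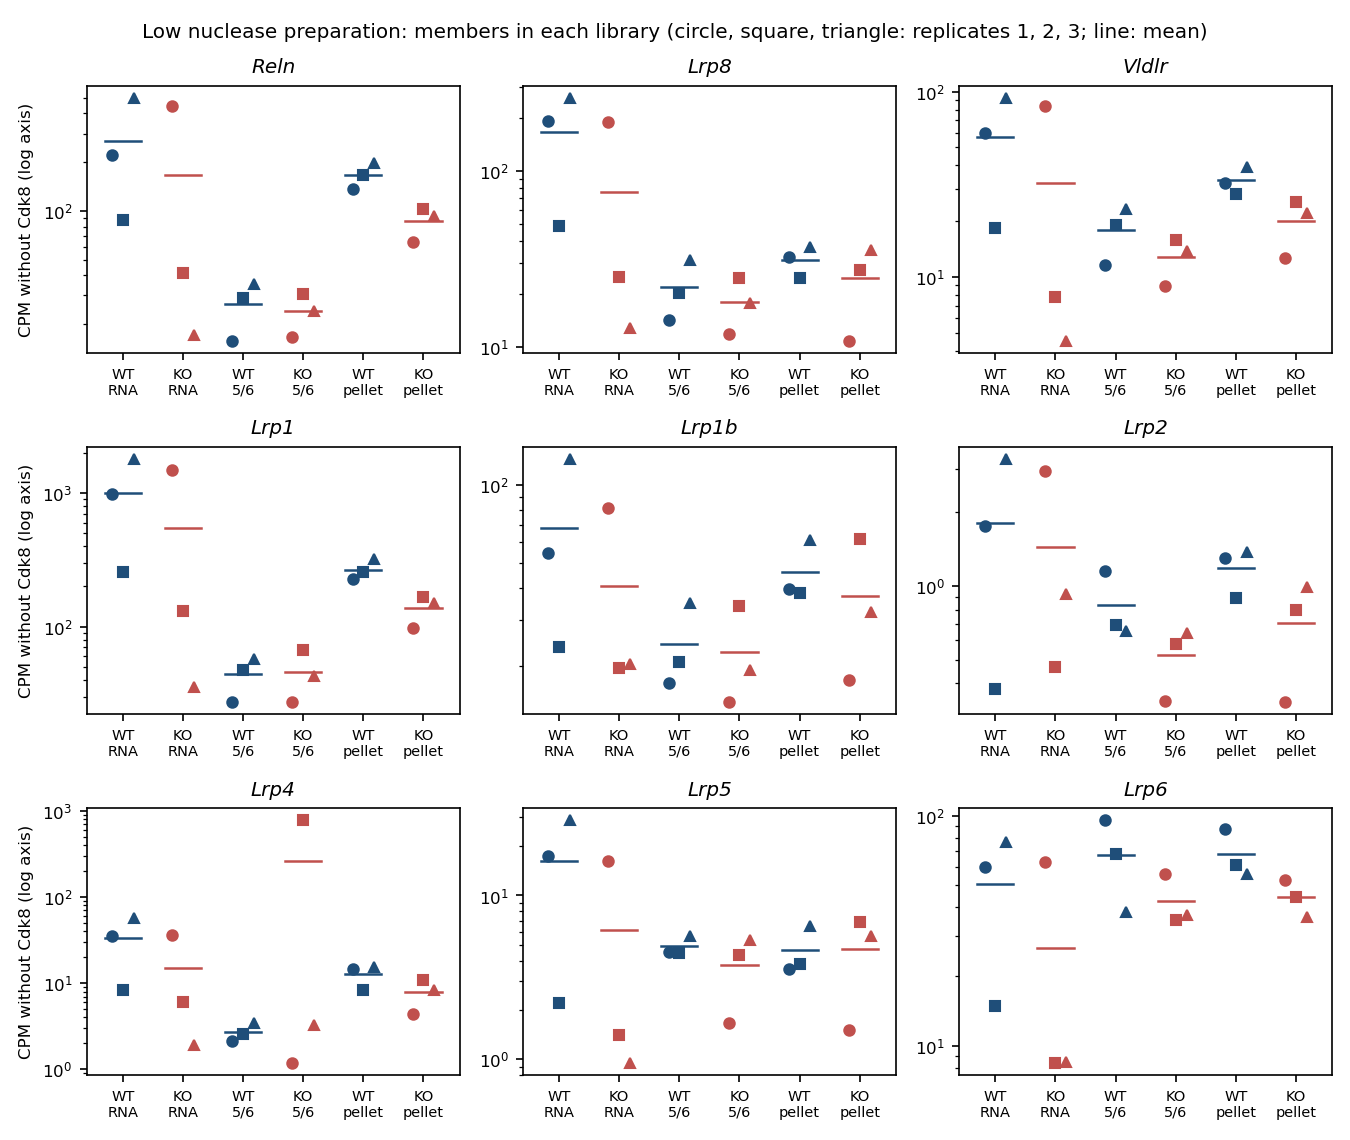
Levels of the 9 genes in the 18 low nuclease libraries, drawn as for the standard libraries (log axis of CPM without Cdk8, a symbol for each library, lines for group means). Reln and Lrp1 lie higher in the pellet than in fraction 5/6 in all libraries, RNA is widely spread, and 1 FMR1 KO library of fraction 5/6 holds Lrp4 at 775 CPM.

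Enrichment, the level in the pellet against fraction 5/6, compares RPFs with RPFs. With all 12 standard libraries none of the 8 members tested was called (Lrp2 had too few counts) in either genotype by the edgeR quasi-likelihood test, although in FMR1 KO Lrp1 was at 3.10 (SE 0.80, adjusted p = 0.0809), Reln at 2.63 (SE 0.61, adjusted p = 0.0809) and Lrp4 at 2.32 (SE 0.64, adjusted p = 0.0817). In WT the values were 1.34 for Lrp1 (SE 0.75, adjusted p = 0.444), 1.34 for Reln (SE 0.57, adjusted p = 0.41) and 1.10 for Lrp4 (SE 0.57, adjusted p = 0.432). Few genes of any kind were called: 0.00727% of 13749 genes were higher and 0% lower in WT, and 0% were higher and 0% lower in FMR1 KO, although 3730 genes had an unadjusted p under 0.05 in FMR1 KO and 1662 in WT. Of the members, 5 had an unadjusted p under 0.05 in FMR1 KO and 1 in WT, and DESeq2 called 3 members in FMR1 KO (Lrp1 at 3.11, Reln at 2.64 and Lrp4 at 2.35) and 0 in WT, where it called 8.44% of 13749 genes higher in FMR1 KO and 0.131% in WT.

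The library labelled WT whose Fmr1 level was below those of FMR1 KO bore on these calls. In the fit both genotypes share 1 estimate of spread, and in WT the fold changes themselves also moved when it was left out, from 1.34 to 3.34 for Lrp1. Without WT fraction 5/6 replicate 3, Lrp1 was 10.1-fold higher in the WT pellet (3.34, SE 0.35, adjusted p = 0.000467) and 8.85-fold higher in the FMR1 KO pellet (3.15, SE 0.29, adjusted p = 0.000189). Reln was 5.62-fold higher in WT (2.49, SE 0.42, adjusted p = 0.00491) and 6.35-fold higher in FMR1 KO (2.67, SE 0.36, adjusted p = 0.00132). Lrp4 was 4.77-fold higher in WT (2.25, SE 0.50, adjusted p = 0.0184) and 5.15-fold higher in FMR1 KO (2.36, SE 0.44, adjusted p = 0.00748). These were 3 of 8 members in each genotype, where 10.1% of 14008 genes were higher in WT and 11.1% in FMR1 KO. The median over the members was 0.81 in WT and 0.93 in FMR1 KO, beside -0.0023 and 0.01 over all genes. Leaving out WT fraction 5/6 replicate 1 instead also let the FMR1 KO values of Lrp1 (adjusted p = 0.0376), Reln (adjusted p = 0.0376) and Lrp4 (adjusted p = 0.0447) pass, where 4.6% of 13975 genes were higher and none had been with all libraries.

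The other members were not called without that library. Lrp1b was at 0.52 in WT and 1.09 in FMR1 KO (adjusted p = 0.462 and 0.0867), Vldlr at 1.10 and 0.37, Lrp8 at 0.40 and 0.67, Lrp5 at -0.62 and 0.77 and Lrp6 at 0.18 and -0.92. The FMR1 KO value of Lrp6 rests on the library with 32.2 CPM, and without FMR1 KO fraction 5/6 replicate 3 it was 0.17.

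**Figure D4:**
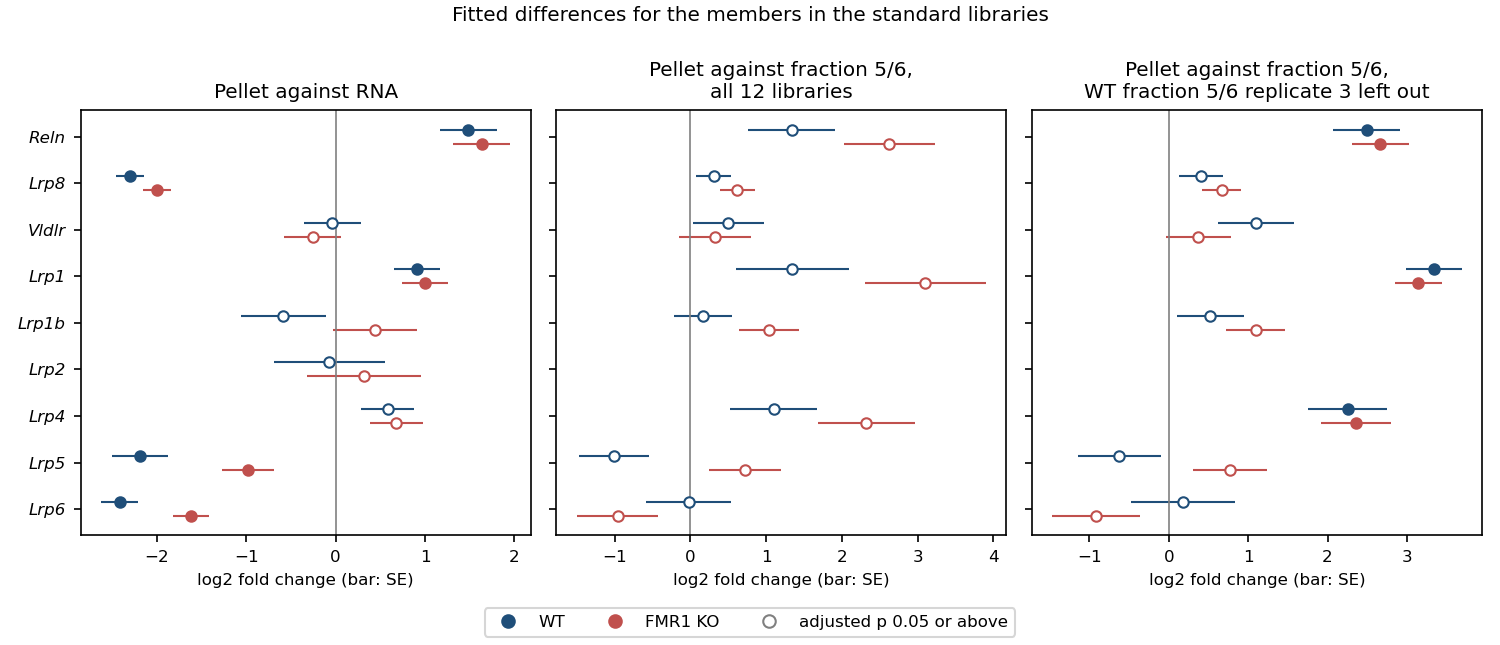
Fitted log2 fold changes with their SE (horizontal bars) in the standard libraries for WT (blue) and FMR1 KO (red). The panels give pellet against RNA, pellet against fraction 5/6 with all 12 libraries, and the latter without WT fraction 5/6 replicate 3, and open points have an adjusted p of 0.05 or above. Reln, Lrp1 and Lrp4 are called in both genotypes in the last panel alone of the 2 enrichment panels.

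The low nuclease libraries gave the same direction for Reln and Lrp1. The labels do not say whether they came from other mice than the standard libraries. Reln had 136, 166 and 199 CPM in the WT pellet against 15.7, 28.8 and 35.4 CPM in WT fraction 5/6, and 64.2, 103 and 93.0 CPM against 16.6, 30.8 and 24.2 CPM in FMR1 KO. Lrp1 had 225, 254 and 320 CPM against 27.5, 47.4 and 57.5 CPM in WT, and 97.0, 168 and 151 CPM against 27.4, 66.5 and 42.9 CPM in FMR1 KO. For both genes the pellet libraries were all above those of fraction 5/6 in each genotype. The fitted enrichments were 2.78 for Reln (SE 0.31, adjusted p = 0.000503) and 2.73 for Lrp1 (SE 0.34, adjusted p = 0.000867) in WT, and 2.07 for Reln (SE 0.30, adjusted p = 0.00201) and 1.82 for Lrp1 (SE 0.33, adjusted p = 0.00501) in FMR1 KO. Vldlr was called at 1.01 in WT (SE 0.29, adjusted p = 0.0292) and sat at the threshold in FMR1 KO (0.85, adjusted p = 0.05), which made 3 of 9 members in each genotype beside 13.4% of 15929 genes in WT and 12.7% in FMR1 KO. Lrp4 had 14.7, 8.24 and 15.5 CPM in the WT pellet against 2.14, 2.55 and 3.42 CPM, but in FMR1 KO fraction 5/6 it had 1.191, 775 and 3.23 CPM, against 4.37, 10.8 and 8.32 CPM in the pellet. The value of 775 CPM came from 46805 counts in replicate 2 and made the fitted FMR1 KO enrichment -4.79 (adjusted p = 0.0762). Without that library, an alternative chosen after seeing the data, Lrp4 was at 2.35 in WT (adjusted p = 0.00555) and 2.02 in FMR1 KO (adjusted p = 0.0206), and Vldlr was no longer called in FMR1 KO (1.01, adjusted p = 0.0517). The members called in FMR1 KO were then Lrp1, Reln and Lrp4, beside 9.89% of 16007 genes higher, and in WT these and Vldlr, beside 13.1%.

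Ratios of counts within a library do not depend on scaling. Lrp1 and Lrp1b have coding sequences of similar length, and the ratio of their counts was 6.31, 8.33 and 6.53 in the WT pellet and 7.20, 2.61 and 5.91 in the FMR1 KO pellet. In fraction 5/6 it was 0.969, 0.963 and 5.42 in WT and 1.202, 1.29 and 0.923 in FMR1 KO. All libraries of fraction 5/6 but WT replicate 3 were thus below each pellet library. In RNA the ratio ran from 1.46 to 4.54. For Reln over its receptor Lrp8 the ratio was 6.74 to 13.5 over the 6 pellet libraries, 2.24 to 2.86 in fraction 5/6 without WT replicate 3, which had 10.3, and 0.619 to 0.931 in RNA. For Reln over Vldlr it was 5.67 to 9.13 in the pellet and 1.36 to 2.74 in fraction 5/6 without WT replicate 3, which had 4.79, and 1.59 to 2.61 in RNA. In the standard preparation the pellet libraries were thus above all RNA libraries in both ratios of ligand to receptor. In the low nuclease preparation this held for Reln over Lrp8, at 2.62 to 6.76 in the pellet and 1.15 to 2.35 in RNA, but Reln over Vldlr overlapped, at 4.06 to 5.92 in the pellet and 3.72 to 5.39 in RNA.

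**Figure D5:**
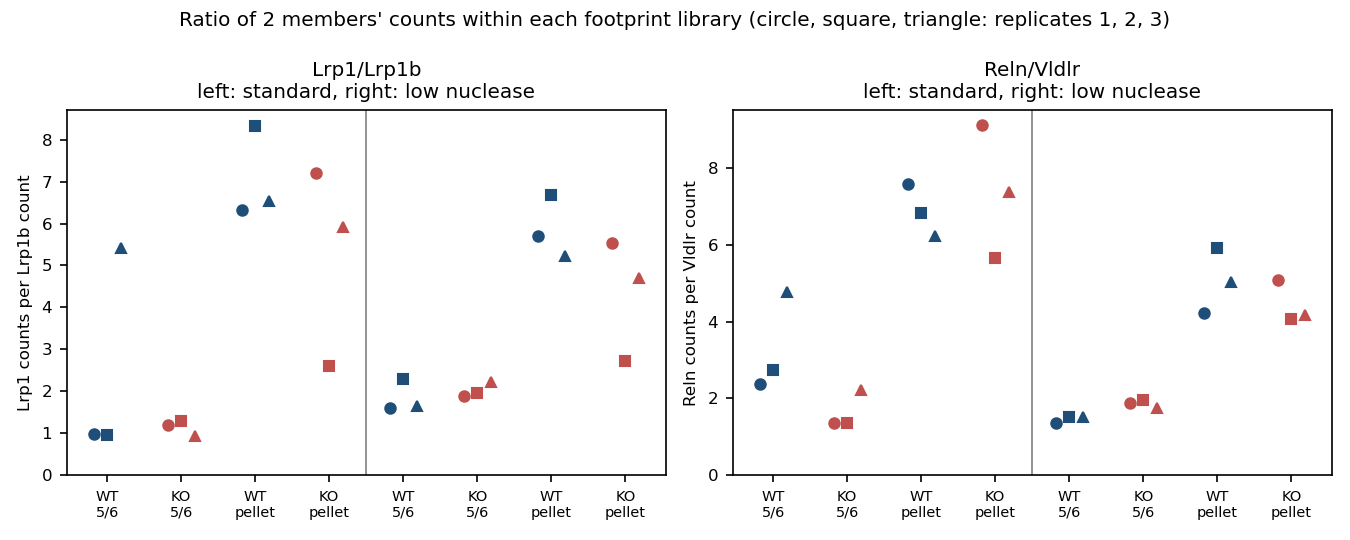
Ratios of counts within each RPF library, on a linear axis from 0, for Lrp1 over Lrp1b and Reln over Vldlr, with the standard libraries left and the low nuclease libraries right of the vertical line. Each symbol is a library (circle, square and triangle for replicates 1, 2 and 3, WT blue, FMR1 KO red). Standard WT fraction 5/6 replicate 3 lies at 5.42 and 4.79, above the other libraries of fraction 5/6.

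Genotype was compared next. None of the members tested (Lrp2 had too few RPF counts for 3 of the 5 comparisons) was called different between FMR1 KO and WT by the edgeR quasi-likelihood test or by DESeq2, and few genes in the table did. For the genotype difference in occupancy 0.0669% of 16437 genes were called and 6.13% had an unadjusted p under 0.05, and 2 members had an unadjusted p under 0.05, Lrp5 (1.21, SE 0.43, adjusted p = 0.749) and Lrp6 (0.80, SE 0.28, adjusted p = 0.749). For the difference in enrichment 0% of 13749 genes were called (765, or 5.56%, at an unadjusted p under 0.05, 41 by DESeq2), and 1 member, Lrp5, had an unadjusted p under 0.05 (1.74, SE 0.66, adjusted p = 0.83). Without WT fraction 5/6 replicate 3 it was at 1.39 (SE 0.70, adjusted p = 0.862). In the pellet itself 0.0152% of 13171 genes were called and 5.34% had an unadjusted p under 0.05, and Lrp5 was again the 1 member with an unadjusted p under 0.05 (1.07, SE 0.41, adjusted p = 0.863). It rests on 5 to 19 counts a library, and its WT and FMR1 KO pellet libraries did not overlap, as for 3.71% of 16491 genes in this direction. In fraction 5/6 0% of 13108 genes were called (598, or 4.56%, at an unadjusted p under 0.05, 81 by DESeq2) and in RNA 0.0735% of 16333 (2.59% at an unadjusted p under 0.05), and in both 0 members had an unadjusted p under 0.05. Without WT fraction 5/6 replicate 3, 4 of 13135 genes were called in fraction 5/6 (813 at an unadjusted p under 0.05) and 0 members.

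For the members that carried the enrichment, the genotype difference in the standard libraries was small against its error once WT fraction 5/6 replicate 3 was left out. It was -0.19 for Lrp1 (SE 0.41, adjusted p = 0.978), 0.18 for Reln (SE 0.51, adjusted p = 0.99) and 0.11 for Lrp4 (SE 0.64, adjusted p = 1), whereas with that library it was 1.76 (SE 1.05), 1.29 (SE 0.81) and 1.22 (SE 0.85), none of which was called. In the low nuclease libraries it was -0.91 for Lrp1 (SE 0.46, adjusted p = 0.616) and -0.71 for Reln (SE 0.41, adjusted p = 0.661), and without FMR1 KO fraction 5/6 replicate 2 -0.56 (SE 0.40, adjusted p = 0.884) and -0.50 (SE 0.41, adjusted p = 0.907), all uncalled. Their standard pellet levels differed by -0.08 for Lrp1 (SE 0.30), -0.03 for Reln (SE 0.40) and -0.26 for Lrp4 (SE 0.33), and their RNA by -0.19 (SE 0.15), -0.19 (SE 0.14) and -0.36 (SE 0.22). These values do not show that the genotypes were alike.

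In the low nuclease pellet the mean FMR1 KO level was lower than that of WT for 8 of the 9 members, and level for Lrp5 (4.69 and 4.63 CPM). Lrp1 had a mean of 139 ± 37.2 CPM in FMR1 KO and 267 ± 48.6 CPM in WT (SD, n = 3), and Reln 86.8 ± 20.3 and 167 ± 31.6 CPM. For these genes, and for Vldlr and Lrp6, the FMR1 KO libraries all lay below the WT libraries, which was 4 of 9 members beside 8.52% of 16573 genes. Of the cell type markers Pdgfra, of the oligodendrocyte lineage (16.0 to 40.7 CPM in FMR1 KO and 42.9 to 63.4 CPM in WT), and both red blood cell markers, Hbb-bs and Hba-a1 (9.12 to 12.7 CPM summed in FMR1 KO and 15.3 to 20.0 CPM in WT), did the same. The summed oligodendrocyte lineage markers ran from 60.8 to 176 CPM in FMR1 KO and 133 to 268 CPM in WT, and the neuronal markers from 7104 to 8687 and 6707 to 8487 CPM. Their part in the difference was not tested. None of the members was called. The fitted differences were -0.86 for Lrp1 (SE 0.23), -0.86 for Reln (SE 0.22), -0.63 for Vldlr (SE 0.25) and -0.50 for Lrp6 (SE 0.21), each with an adjusted p of 0.907 in the edgeR test, where 0.0197% of 15263 genes were called lower and 0% higher. Lrp1, Reln and Vldlr had an unadjusted p under 0.05, beside 4.34% of all genes, and the median over the 9 members was -0.61, beside 0.0043 over all genes. The standard pellet gave -0.08 for Lrp1 and -0.03 for Reln, with overlapping libraries, and the difference between the preparations was not tested.

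Other genes of the pathway, in lists chosen by role, gave the setting for the members. Of 8 other relatives of the LDL receptor, 1 was higher and 5 were lower in WT occupancy, beside 30.6% and 35.9% of all genes. Lrp12 was highest (2.02, adjusted p = 0.000953) and Lrp3 lowest (-2.57, adjusted p = 4.6e-06). Of 15 genes of reelin signalling inside the cell 2 were higher and 7 lower, with Cul5, the scaffold of the ubiquitin ligase that removes active Dab1, at 1.42 (adjusted p = 3.67e-07) and its RING partner Rnf7 at -5.39 (adjusted p = 2.28e-08). Of 11 chaperones and adaptors of the receptors 1 was higher and 5 lower, between Snx17, a sorting nexin that recycles Lrp1, at 0.42 (adjusted p = 0.00846) and the scaffold Mapk8ip1 at -2.53 (adjusted p = 4.95e-08). Of 11 tested ligands other than reelin 6 were higher and 1 lower, with App, the amyloid precursor, at 2.259 (adjusted p = 0.000512) and Wnt7a at -1.63 (adjusted p = 0.000378), and the list's median was 0.80. Of 14 partners of Lrp5, Lrp6 and Lrp4, 4 were higher and 6 lower, between the Wnt receptors Fzd5 (2.66, adjusted p = 0.000106) and Fzd3 (-2.67, adjusted p = 3.17e-07). These directions too are relative to the average gene. In CPM Snx17 was at 49.4, 65.4 and 39.6 in the WT pellet, below the 80.1, 81.0 and 84.3 of WT RNA. The WT pellet libraries of Cul5, App and Fzd5 lay above WT RNA in CPM, and those of Lrp12 overlapped it.

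In enrichment none of these genes was called with all 12 libraries. The extremes in FMR1 KO were Ldlrad4 at 5.85 (adjusted p = 0.0885) and Ldlrad3 at -0.63 among the relatives, Cdh2 at 0.77 and Rap1a at -0.53 in reelin signalling, Snx17 at -0.41 as the lowest of the adaptors, and Fzd8 at 0.64 and Fzd3 at -0.28 among partners. Ldlrad4 had 9.14, 1305 and 9.29 CPM in the FMR1 KO pellet, so its value came from 1 library. Among the ligands A2m, the protease inhibitor alpha-2-macroglobulin and a classical Lrp1 ligand, was at 2.36 (adjusted p = 0.0809) and Dkk3 at -0.08. Without WT fraction 5/6 replicate 3, 3 of 11 ligands were higher in FMR1 KO and 4 in WT, and A2m was at 2.40 (SE 0.28, adjusted p = 0.000545) in FMR1 KO and 1.41 (SE 0.30, adjusted p = 0.0154) in WT, from 1.91 to 4.97 CPM in the 6 pellet libraries. Of 15 genes of reelin signalling 1 was higher and 2 lower in FMR1 KO, and of 8 relatives 1 was higher, beside 11.1% of all genes higher and 2.89% lower.

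Genes with long coding sequences were often enriched. Without WT fraction 5/6 replicate 3, Lrp1, Reln and Lrp4 were called and Lrp1b, longer than Lrp1, was not. The coding sequence of Lrp4 is longer than that of 97.1% of genes. In the same fit, 50 of 95 tested genes with a coding sequence of at least 10000 nt were higher in the WT pellet and 57 of 95 in the FMR1 KO pellet, with medians of 1.22 and 1.56. Among these 95, Lrp1 ranked 10th in WT and 11th in FMR1 KO, Reln 20th and 21st, and Lrp1b 63rd in both, so the last was below the median of genes of its length. Over the 18 standard libraries, the gene whose log2 CPM was most like that of Lrp1 was Wdfy3 (Pearson r = 0.991, coding sequence of 10578 nt), followed by Ep400 (0.986, 8997 nt) and Trank1 (0.985, 8997 nt). For Reln these were Vps13c (0.980, 11244 nt), Lyst (0.976, 11361 nt) and Glg1 (0.974, 3525 nt). The values were ranked over 15136 genes and share libraries and depth, and are given as a description. The part of coding length in the enrichment of Lrp1 and Reln was not tested. Reln, the other ligands and the receptors are secreted or membrane proteins. The part of rough endoplasmic reticulum in their pellet values was not tested.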

How the data were processed

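The authors trimmed reads with cutadapt 2.10, removed non-coding RNA with Bowtie2 2.3.5, aligned to GRCm38 with STAR 2.7.8a, removed duplicates with Picard and SAMtools 1.19.2, and counted reads per gene with featureCounts 2.2.0. The deposited counts are whole numbers without normalization. The deposited peak lists give a coverage signal (height in reads) per peak, called per sample by the authors on transcripts. From the counts, CPM were computed without Cdk8. The tests used edgeR 4.0.16 (quasi-likelihood, TMM, filterByExpr) in R 4.3.3 on protein-coding genes, leaving out Cdk8 and 26 non-coding genes, with Benjamini-Hochberg adjustment and a threshold of 0.05. DESeq2 1.42.0 and other settings were alternatives. Gene models were those of GENCODE M21, which matched 16587 of 16614 identifiers. The fits were also run on simulated counts, and no result given here rests on that run. The members and gene lists were chosen with earlier results of these data known. Genes other than members were named as the highest and lowest of each pathway list in WT occupancy and FMR1 KO enrichment, and as the 3 most like Lrp1 or Reln. One gene under this rule is not reported here. The limit given for a count of 0 covers counting error only. Replicate numbers were not treated as pairs.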

Additional observations from a re-analysis of the deposited data

How the results depend on the processing

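Of the single-gene values for members under alternatives that kept all libraries of their preparation, 253 kept direction and side of the threshold, 20 became called, 4 were no longer called and 26 turned sign, and most of the latter came with library size alone or the low nuclease libraries. Under the added alternatives that left out 1 or 3 low nuclease libraries, 14 kept both, 8 became called, 2 were no longer called and 13 turned sign. The cause was not tested unless a value is given beside it in the text. With library size alone, occupancy turned to -0.22 for Lrp1 and -0.54 for Lrp4 in WT, and to -0.059 for Lrp1, -0.70 for Lrp1b, -0.82 for Lrp2 and -0.42 for Lrp4 in FMR1 KO, members higher were 0 in both genotypes and members lower 5 in WT (65.3% of all genes were lower there), and 3 genes were called in WT enrichment, 12 in the pellet and 3 in fraction 5/6 between genotypes. With DESeq2, Lrp4 was called higher in occupancy in both genotypes (0.66, adjusted p = 0.036, and 0.74, adjusted p = 0.0199), so that 3 members were higher and 3 lower in each, WT occupancy of Lrp2 was 0.013 and of Vldlr 0.039, members higher in FMR1 KO enrichment were 3, and genes called were 63 and 41 for the genotype differences in occupancy and enrichment, 65 and 1537 in WT and FMR1 KO enrichment, and 96, 81 and 24 between genotypes in the pellet, fraction 5/6 and RNA. With Cdk8 kept, WT occupancy of Vldlr was 0.012 and WT enrichment of Lrp6 0.0015. With each genotype fitted by itself, WT occupancy of Vldlr was 0.012, Lrp4 was called in FMR1 KO occupancy (0.69, adjusted p = 0.0496), WT enrichment called 3 genes, and FMR1 KO enrichment called 1527 genes and 3 members. With all 6 standard groups in 1 model, 4 genes were called for the genotype difference in occupancy.

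With the low nuclease libraries, WT occupancy was -2.01 for Lrp1, -1.48 for Lrp4, 0.24 for Lrp6 and -0.91 for Reln, and FMR1 KO occupancy -2.29 for Lrp1, -1.39 for Lrp1b, -2.22 for Lrp2, -1.64 for Lrp4 and -1.34 for Reln. The genotype difference of Lrp6 was -0.33. Members higher were 0 in both genotypes, members lower 5 in WT and 7 in FMR1 KO (18.9% and 19.4% of all genes were lower), and genes called 6735 in WT, 6677 in FMR1 KO and 3 for the difference. Less the 3 RNA libraries dominated by 10 genes (added after seeing the data), 1 FMR1 KO RNA library remained and was assumed to vary like the other groups. There the values were -1.88, -1.36, 0.47 and -0.61 in WT and -2.95, -0.69, -1.57, -1.76 and -1.89 in FMR1 KO for the same genes in turn, -0.49 for the difference of Lrp6, 0 members higher in both, 6 lower in FMR1 KO (24.7% of all genes were lower) and 1 gene called for the difference. Low nuclease enrichment was 0.048 for Lrp5 and 0.094 for Lrp6 in WT and -4.79 for Lrp4 and 0.26 for Lrp6 in FMR1 KO, with 3 members higher in each, and 4165, 4480 and 3 genes called in WT, FMR1 KO and their difference. Less FMR1 KO fraction 5/6 replicate 2 (added after seeing the data), it was 0.052 for Lrp5 and 0.10 for Lrp6 in WT and 0.15 for Lrp6 in FMR1 KO, with 4 and 3 members higher (13.1% and 9.89% of all genes were higher, Vldlr was no longer called in FMR1 KO, and Lrp4 was) and 3659, 3124 and 5 genes called. Fraction 5/6 called 7 genes and RNA 0 between genotypes.

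Replicate numbers were not treated as pairs, since the labels do not say that a number marks a shared batch and not every correlation of same-numbered libraries was over 0.1. They ran from -0.19 to 0.27, and the 6 between pellet and fraction 5/6 of a genotype were all positive, at 0.02 to 0.27, with 3 over 0.1. With the replicate block, 7 genes were called for the genotype difference in occupancy, 1 for that in enrichment and 0 in the pellet, WT enrichment of Lrp6 was 0.014, Lrp4 was called in FMR1 KO occupancy (0.73, adjusted p = 0.0277), and Lrp1 was at 0.85 in WT occupancy (adjusted p = 0.00822).

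Leaving out each library in turn gave 1 to 1857 genes called and 0 to 3 members higher in WT enrichment, 0 to 1962 genes and 0 to 3 members in FMR1 KO enrichment, 0 to 4 genes for their difference, 7 to 27 for the difference in occupancy, and 0 to 8 and 0 to 11 genes between genotypes in the pellet and fraction 5/6. Members that turned sign were uncalled with all libraries: in WT occupancy Vldlr ran from -0.62 to 0.21, Lrp2 from -0.43 to 0.45 and Lrp1b from -0.96 to 0.10, in FMR1 KO occupancy Lrp2 from -0.19 to 0.66, in WT enrichment Lrp1b from -0.27 to 0.52, Lrp6 from -0.21 to 0.18 and Vldlr from -0.15 to 1.10, and in FMR1 KO enrichment Lrp6 from -1.31 to 0.17.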
